A study of Mus musculus with 12 samples.

Results

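Hematopoietic transcription factors were followed in mouse acute myeloid leukemia driven by MLL-AF9, a fusion oncogene of the histone methyltransferase gene MLL, in the presence or absence of the energy-sensing kinase AMPK. The set was a list of 47 genes named by symbol. Membership was set by symbol and not by a measured threshold, although the list was drawn up with earlier results of these data known. Of these, 45 had at least 1 probe set with that symbol alone in the platform annotation, and each was read from its brightest such probe set. All 45 were among the 17749 genes tested, of 22180 genes with a probe set. Runx2 and Zeb2 had no such probe set and were not analysed here.

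Blood formation is steered by transcription factors that open or close whole gene programs. The core-binding factor RUNX1 and the C/EBP proteins set up myeloid identity, PU.1 (encoded by Spi1) and IRF8 favour monocytes and dendritic cells, and GFI1 favours granulocytes. GATA2, ERG, FLI1, TAL1 and LMO2 form a stem cell circuit shared with the erythroid and megakaryocytic lineages, while immediate early factors such as FOS, JUN and EGR1 are switched on within minutes of a signal or of cell handling. In MLL-rearranged leukemia the progenitor program kept up by MYB, MYC and related factors is known to sustain self-renewal.

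The study holds 12 one-colour expression arrays of C57BL/6J bone marrow, 3 in each of 4 groups. MLL-AF9 was expressed in all groups, in stem and progenitor cells that were either AMPKfl/fl (called wild type here) or AMPKΔ/Δ (called knockout), of which 50000 were given to recipients irradiated with 10 Gy. When a recipient developed leukemia, 5000 cells were sorted from its marrow, as all GFP+ cells (whole leukemia) or as L-GMP, the GFP+ leukemic granulocyte-macrophage progenitors, which were CD34+ and CD16/32+, also c-kit+ and lin-. The labels give neither the animals' age nor how and in which AMPK subunit gene the alleles were deleted, and the controls carry the floxed allele and the same oncogene. Nor is it stated whether the arrays within a group are from different animals; the p-values therefore reflect the scatter of these samples alone, some of which may be technical.

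Values are log2 of the deposited intensity, in log2 units, so a difference of 1 is a 2-fold change. Prkaa1, which encodes the alpha 1 catalytic subunit of AMPK, lay at 7.72 to 8.69 in wild-type and 6.95 to 7.45 in knockout whole leukemia, and at 7.99 to 8.33 in wild-type and 6.83 to 7.31 in knockout L-GMP. Its arrays did not overlap between genotypes in either population, although the labels do not say whether this probe set lies in the deleted part. Arrays correlated at 0.865 to 0.983 over the genes tested. Knockout whole leukemia array 2 stood apart on the first principal component (67.4, against -24.2 to 18.5 for the other arrays), and knockout L-GMP array 2 on the second (-41.3, against -19.6 to 21.8). Of the sorting-gate genes, Cd34 lay between 9.45 and 10.05 in L-GMP of both genotypes, at 8.48, 9.38 and 8.35 in wild-type whole leukemia, and at 5.54, 6.65 and 7.05 in knockout whole leukemia. It was the only gene of that list whose arrays did not overlap between populations. Of the 8 tested sorting-gate and progenitor genes, 5 lay higher and 3 lower in wild-type L-GMP (median 0.098). In knockout L-GMP all 8 lay higher (median 0.763). B cell, T and NK cell and stromal marker lists stayed at means of 4.78 to 6.03 on every array. List means can hide single genes. In knockout whole leukemia, genes of the B cell and of the T and NK cell list lay up to 1.304 and 1.415 higher than in the wild type. Ighm of the B cell list is given with Bcl11a below. Fewer cells of a type and less RNA per cell cannot be told apart in these sorted bulk samples.

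The promoters of 3 immediate early genes are shown. Fos and Jun were among the genes with the widest spread between arrays. Klf6, like Fos and Jun, was among 7 immediate early and quiescence genes that were lowest on the number-2 wild-type arrays. Each window, from RefSeq on GRCm38.p6, runs 5′ to 3′ on the gene's strand from 250 bases before to 50 after the start, at chr12:85473640-85473939 (Fos, plus strand), chr4:95052173-95052472 (Jun, minus strand) and chr13:5861239-5861538 (Klf6, plus strand). Capitals mark TGACGT, the core of the cAMP response element, in Fos, and TGACATCA, a variant AP-1 site, in Jun and Klf6.
Fos: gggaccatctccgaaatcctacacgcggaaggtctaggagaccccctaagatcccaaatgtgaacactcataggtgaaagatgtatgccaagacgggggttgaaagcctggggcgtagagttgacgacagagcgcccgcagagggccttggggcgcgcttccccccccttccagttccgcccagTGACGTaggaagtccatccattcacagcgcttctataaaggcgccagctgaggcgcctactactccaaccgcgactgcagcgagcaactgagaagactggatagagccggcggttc
Jun: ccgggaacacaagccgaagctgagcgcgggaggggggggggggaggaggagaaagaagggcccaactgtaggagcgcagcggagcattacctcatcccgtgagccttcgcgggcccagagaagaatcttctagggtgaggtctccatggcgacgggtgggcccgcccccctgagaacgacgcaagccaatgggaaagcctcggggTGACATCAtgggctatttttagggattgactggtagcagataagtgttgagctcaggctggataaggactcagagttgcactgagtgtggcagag
Klf6: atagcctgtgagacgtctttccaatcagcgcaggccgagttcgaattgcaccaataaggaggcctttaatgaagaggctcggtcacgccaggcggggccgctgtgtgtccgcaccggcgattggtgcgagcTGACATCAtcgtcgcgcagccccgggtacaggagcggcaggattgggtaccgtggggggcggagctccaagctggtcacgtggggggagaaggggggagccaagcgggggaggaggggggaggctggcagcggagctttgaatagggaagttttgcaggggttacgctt
In these windows TGACGT lay 66 bases before the start in Fos, and TGACATCA lay 45 bases before it in Jun and 119 in Klf6. Searched on both strands, TGACGT was found in 7.51% of 32851 promoter windows of this length and TGACATCA in 3.62%, and the motifs do not contain one another. Of the 34 listed transcription factor genes in the promoter table, 4 held TGACGT (Egr2, Etv6, Fos and Hlf) and 4 held TGACATCA (Jun, Klf6, Runx1 and Runx3). Of the 7 immediate early and quiescence genes among them, 2 held TGACGT and 2 held TGACATCA. A gene was counted if any of its windows held the motif, so these gene counts and the percentages of windows are not in the same unit. A match is a description of the letters only.

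**Figure D1:**
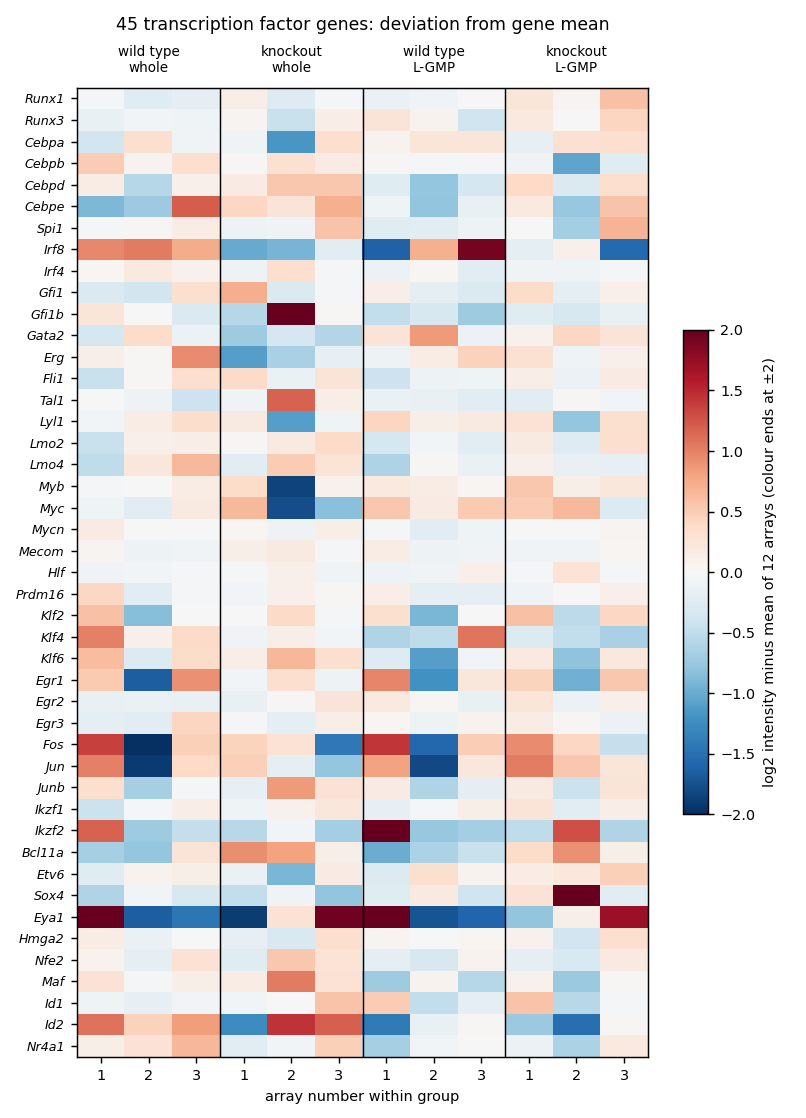
Each row is 1 of the 45 genes and each column 1 of the 12 arrays, in 4 groups of 3; colour gives the log2 intensity minus the gene's mean over the 12 arrays, with the scale ending at ±2. Eya1, Fos, Jun and Ikzf2 show the same pattern of high and low arrays in both wild-type populations, and the isolated dark cells are Gfi1b (9.21) in knockout whole leukemia array 2 and Sox4 (8.53) in knockout L-GMP array 2.

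The transcription factor genes varied more between like arrays than most genes did. Their median spread within groups was 0.391 log2 (pooled SD), against 0.194 over all genes tested, and 17 of the 45 (37.8%) lay above the 90th percentile of all genes, 0.447. They were also brighter, with a median level of 7.21 against 5.82. Irf4, Mycn, Mecom and Hlf lay within 0.5 of the dim limit of 4.72 below which genes were not tested, and Tal1, Prdm16, Egr2, Ikzf2 and Maf within 1. Changes of these 9 genes would be compressed. In the colour map of deviations the groups do not form uniform blocks.

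Knockout was compared with wild type in each population, the question the study poses of AMPK loss. In L-GMP limma called 0 of the 45 genes at an adjusted p under 0.05, and 0.00563% of all those tested. At an unadjusted p under 0.05 the 3 genes Bcl11a, Cebpd and Runx1 passed, all higher in the knockout. This is 6.67% of the members, beside 4.13% of all genes in either direction and 2.3% in that direction. In whole leukemia limma called 0 members, and 0% of all genes were called. There 2 members had an unadjusted p under 0.05, Erg (lower) and Bcl11a (higher), which is 4.44% beside 5.97% of all genes. The genotypes' arrays did not overlap in L-GMP for 5 members, Runx1, Gfi1b, Mycn and Bcl11a (higher) and Cebpb (lower), which is 11.1% beside 9.48% of all genes. In whole leukemia they did not overlap for 4, Cebpd and Id1 (higher) and Irf8 and Erg (lower), which is 8.89% beside 11.2%.

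The balance of directions differed between the populations but was not tested as such. In L-GMP 33 members lay higher in the knockout and 12 lower, beside 9735 of all 17749 genes higher. The median member difference was 0.106 against 0.017 over all genes. Without both number-2 wild-type arrays 28 members lay higher (median 0.067), and without both number-2 knockout arrays 37 (median 0.206). In whole leukemia 25 members lay higher and 20 lower, beside 8810 of all genes higher, with a median of 0.048 against -0.002. There the member median turned to -0.064, with 21 higher, without both number-2 wild-type arrays, and was 0.032 without both number-2 knockout arrays. Leaving out 1 array in turn changed the direction of the genotype difference at least once for 23 of the 45 genes in L-GMP and for 25 in whole leukemia.

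**Figure D2:**
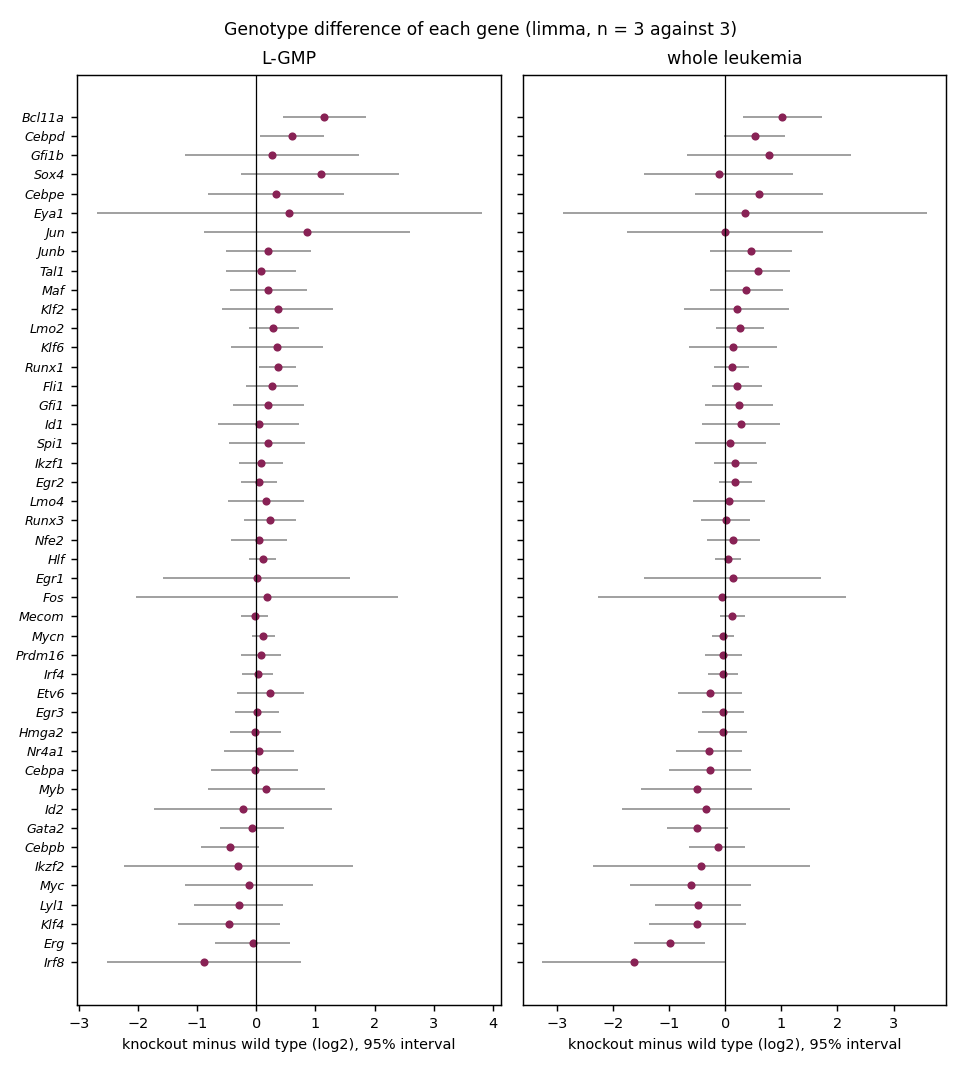
Points give each gene's knockout minus wild-type difference in log2 units with its 95% interval from limma (3 arrays against 3), in L-GMP on the left and whole leukemia on the right, with genes ordered by the mean of both. Bcl11a lies at the top in both panels (1.15 and 1.01) and Irf8 at the bottom (-0.88 and -1.63); most intervals cross 0, and the widest belong to Eya1, Fos, Jun and Ikzf2.

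Among the core-binding and C/EBP factors, 4 of 6 lay higher in knockout L-GMP (median 0.287) and 4 of 6 higher in knockout whole leukemia (median 0.057), with 0 called. Runx1, the founding core-binding factor of blood (probe set 17332236), measured 7.55, 7.60 and 7.67 in wild-type L-GMP and 7.92, 7.73 and 8.27 in knockout L-GMP. All knockout L-GMP arrays lay above all wild-type ones. The difference was 0.37 (SE 0.14, 95% interval 0.05 to 0.68, 1.29-fold, limma adjusted p = 1), and 0.22 without knockout L-GMP array 3. In whole leukemia the groups overlapped, at 7.64, 7.44 and 7.48 in the wild type and 7.80, 7.42 and 7.66 in the knockout.

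Cebpd, which encodes C/EBPδ of the acute phase and of granulocyte maturation (probe set 17323297), lay higher on average in the knockout in both populations. Wild-type L-GMP gave 6.92, 6.39 and 6.82 and knockout L-GMP 7.56, 6.87 and 7.5. The groups overlapped by the knockout array 2 alone, which lay below 1 wild-type array. In whole leukemia the values were 7.32, 6.59 and 7.27 in the wild type and 7.33, 7.71 and 7.71 in the knockout, which did not overlap, by a narrow margin. The differences were 0.60 (SE 0.25) in L-GMP and 0.52 (SE 0.25) in whole leukemia, and their mean over populations was 0.56 (SE 0.17, 95% interval 0.18 to 0.95, limma adjusted p = 0.472). Wild-type array 2 was the lowest of its group in both populations. The whole leukemia difference was 0.29 without that array, and the mean was 0.37 without both number-2 wild-type arrays.

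Cebpb, whose product C/EBPβ drives emergency granulopoiesis and macrophage genes (probe set 17379938), went the other way in L-GMP. It measured 7.38, 7.33 and 7.32 in the wild type and 7.29, 6.30 and 7.12 in the knockout. The groups did not overlap, but the knockout array 2 lay far below the rest. The difference of -0.44 (SE 0.22, limma adjusted p = 1) was -0.14 without that array. On the same array the list of eosinophil, basophil and mast cell genes had a mean of 6.44, against 5.09 to 5.41 on the other L-GMP arrays, and the eosinophil granule gene Prg2 read 11.92. The progenitor granule list was also highest there, at 10.89 against 9.04 to 9.98 on the other L-GMP arrays. The sorting-gate and progenitor list had a mean of 7.69 there, against 7.82 to 8.09. The L-GMP gate took lin-, c-kit+ and CD34+ cells, which is meant to leave mature cells out. The part of cell content, mature or immature, in the Cebpb value was not tested.

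Cebpe, which encodes C/EBPε of the secondary granule stage (probe set 17306472), overlapped between genotypes in both populations. It measured 7.02, 7.19 and 9.13 in wild-type and 8.32, 8.17 and 8.63 in knockout whole leukemia, and 7.83, 7.13 and 7.77 in wild-type and 8.11, 7.16 and 8.48 in knockout L-GMP. The differences were 0.60 in whole leukemia and 0.34 in L-GMP (SE 0.52 each). They became 1.27 without wild-type whole leukemia array 3 and 0.06 without knockout L-GMP array 3. Wild-type whole leukemia array 3 also had the highest wild-type mean of the 17 neutrophil markers (9.62, against 7.77 and 7.55). In knockout whole leukemia the neutrophil means were 8.35, 10.80 and 9.64, and array 2, with the highest, had the lowest Cebpe value of that group. Runx3 and Cebpa differed between genotypes by -0.27 to 0.23 in the populations, within their intervals.

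Of 8 lineage choice factors, 5 lay higher in knockout L-GMP (median 0.037) and 4 in knockout whole leukemia (median 0.022), with 0 called. Irf8, the factor of monocyte and dendritic cell commitment (probe set 17548703), had the largest genotype difference of the 45 genes in whole leukemia. It measured 9.68, 9.75 and 9.46 in the wild type and 7.71, 7.78 and 8.5 in the knockout. The knockout arrays all lay about a log2 unit or more below the wild-type ones. The difference was -1.63 (SE 0.74, 95% interval -3.27 to 0.01, 0.323-fold, limma adjusted p = 0.829). In L-GMP Irf8 read 7.10, 9.43 and 10.63 in the wild type and 8.53, 8.81 and 7.16 in the knockout, which overlapped fully, and the difference of -0.88 was -0.09 without wild-type array 3. Over both populations the difference was -1.26 (SE 0.52, limma adjusted p = 0.618), with a range of -1.75 to -0.86 when single arrays were left out, the smallest without wild-type L-GMP array 3. A second Irf8 probe set gave -1.28 in L-GMP and -1.75 in whole leukemia.

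Monocyte genes lay lower along with Irf8 in whole leukemia. All 18 monocyte and macrophage markers lay lower in the knockout there (median -0.937), their mean running from 7.93 to 8.52 on wild-type and from 7.22 to 7.81 on knockout arrays. In L-GMP 14 of 18 lay lower (median -0.304), with means of 7.25 to 7.98 and 6.96 to 7.36. Of the 14 genes listed as PU.1 and IRF8 targets, several of them shared with the monocyte list, 9 lay lower in knockout whole leukemia (median -0.548) and 10 in knockout L-GMP (median -0.101), with 0 called by limma in either. Ly86, a surface protein gene of monocytes and B cells, had the lowest p of them in whole leukemia (-2.01, SE 0.42, limma adjusted p = 0.493). The part of monocyte content in the Irf8 value was not tested.

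Spi1, which encodes PU.1 (probe set 17373177), did not separate by genotype. It measured 8.80, 8.87 and 9.0 in wild-type and 8.74, 8.78 and 9.42 in knockout whole leukemia, and 8.6, 8.64 and 8.75 in wild-type and 8.86, 8.17 and 9.52 in knockout L-GMP. The genotype groups overlapped in both populations, with differences of 0.09 (95% interval -0.55 to 0.73) and 0.19 (-0.46 to 0.83). Klf4, a monocyte differentiation factor, differed by -0.50 in whole leukemia and -0.46 in L-GMP. Wild-type L-GMP read 5.46, 5.56 and 7.13 and knockout L-GMP 5.79, 5.57 and 5.42, and without wild-type array 3 the L-GMP difference was 0.08. In whole leukemia it was -0.25 without wild-type array 1. Irf4, Gfi1, Maf, Id1 and Id2 differed by -0.34 to 0.37 in either population.

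Among 11 stem cell and erythro-megakaryocytic factors, 7 lay higher in the knockout in each population (medians 0.078 in L-GMP and 0.123 in whole leukemia), with 0 called. Erg, an ETS factor needed to maintain stem cells (probe set 17332358), measured 7.89, 7.79 and 8.72 in wild-type and 6.67, 7.12 and 7.61 in knockout whole leukemia. The 2 genotypes did not overlap. The difference was -0.99 (SE 0.29, 95% interval -1.63 to -0.36, 0.502-fold, limma adjusted p = 0.74), the lowest p of the 45 genes in that comparison. In L-GMP the values were 7.67, 7.92 and 8.24 in the wild type and 8.07, 7.69 and 7.88 in the knockout, which overlapped fully, for a difference of -0.06 (SE 0.29). The list of sorting-gate and progenitor genes was low on the same arrays, with means of 6.51 to 7.24 in knockout against 7.69 to 7.98 in wild-type whole leukemia. Its part in the Erg value was not tested.

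Gata2, the stem and mast cell GATA factor (probe set 17460634), had the same shape. It read 5.53, 6.24 and 5.76 in wild-type and 5.17, 5.54 and 5.29 in knockout whole leukemia, where the groups overlapped by a narrow margin. The difference was -0.51 (SE 0.24, limma adjusted p = 0.829) there, -0.31 without wild-type array 2, and -0.08 (SE 0.24) in L-GMP.

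Tal1, the SCL factor of erythroid and megakaryocytic cells, and Gfi1b, the GFI1 paralog of those lineages, were each set by 1 array in knockout whole leukemia. Tal1 (probe set 17417138) measured 5.35, 5.24 and 4.93 in wild-type and 5.27, 6.52 and 5.48 in knockout whole leukemia. Its difference of 0.58 (SE 0.26, limma adjusted p = 0.829) was 0.20 without knockout array 2. Gfi1b (probe set 17383413) read 6.64, 6.42 and 6.11 in the wild type and 5.84, 9.21 and 6.43 in the knockout. Without both number-2 knockout arrays its difference in whole leukemia went from 0.78 to -0.25. Knockout whole leukemia array 2 had a mean of 9.42 over 8 erythroid markers, against 5.32 to 6.27 on the other whole leukemia arrays. The 6 listed GATA and TAL1 targets had a mean of 8.07 on it, against 5.17 to 5.90. These targets share Klf1, Epor, Slc4a1 and Car2 with the erythroid markers, so the lists are not independent. Car2, the erythroid carbonic anhydrase, read 11.35 on that array. Over all whole leukemia arrays the targets had a median genotype difference of 0.549. In L-GMP Tal1 read 5.21, 5.2 and 5.14 in the wild type and 5.14, 5.37 and 5.29 in the knockout, which overlapped. Gfi1b there read 5.91, 6.09 and 5.70 in the wild type and 6.16, 6.09 and 6.26 in the knockout, which met without overlap (difference 0.27).

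Fli1, the brightest of this group and an ETS factor of megakaryocytes and stem cells (probe set 17525310), measured 9.02, 9.49 and 9.79 in wild-type and 9.85, 9.33 and 9.72 in knockout whole leukemia. It read 9.04, 9.36 and 9.37 in wild-type and 9.59, 9.35 and 9.62 in knockout L-GMP. Its genotype groups overlapped in both populations (differences 0.20 and 0.26, SE 0.20 each). Lyl1, Lmo2, Nfe2, Mecom, Hlf and Prdm16 differed by -0.49 to 0.29 in either population.

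**Figure D3:**
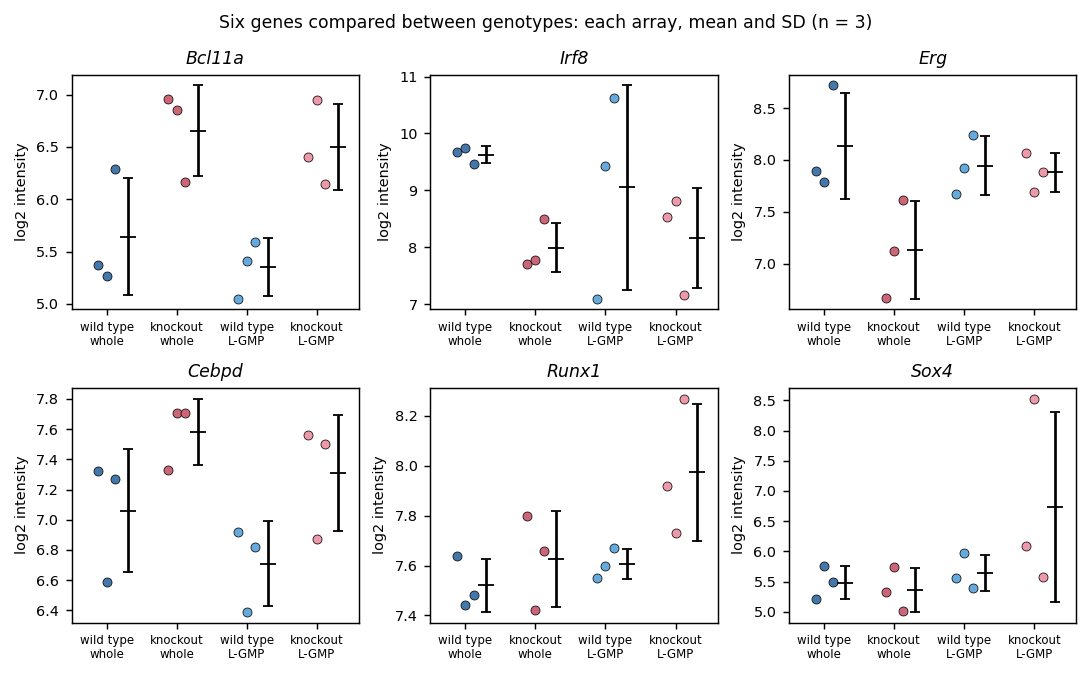
Points are single arrays in log2 intensity for 6 genes in the 4 groups, with the mean and SD (n = 3) beside them. Knockout arrays of Bcl11a lie at 6.15 to 6.96 in both populations and wild-type arrays at 5.05 to 6.29, Irf8 and Erg separate by genotype in whole leukemia but not in L-GMP, and the Sox4 mean in knockout L-GMP rests on 1 array at 8.53.

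Progenitor and leukemia factors held Bcl11a, the gene with the lowest genotype p in L-GMP and on the mean of both populations. Of these 11, 8 lay higher in knockout L-GMP (median 0.168) and 4 in knockout whole leukemia (median -0.045), with 0 called. Bcl11a, a zinc-finger repressor of lymphoid and dendritic precursors that also silences fetal globin (probe set 17247852), measured 5.05, 5.41 and 5.59 in wild-type and 6.40, 6.95 and 6.15 in knockout L-GMP. All knockout L-GMP arrays lay above all wild-type ones. The difference was 1.15 (SE 0.32, 95% interval 0.45 to 1.85, 2.22-fold, limma adjusted p = 0.958). In whole leukemia it read 5.37, 5.27 and 6.29 in the wild type and 6.96, 6.85 and 6.16 in the knockout, where 1 wild-type array lay above 1 knockout array. The difference there was 1.01 (SE 0.32, 95% interval 0.31 to 1.72, 2.02-fold, limma adjusted p = 0.808).

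Averaged over both populations, the Bcl11a difference was 1.08 (SE 0.22, 95% interval 0.58 to 1.58, 2.12-fold, unadjusted p = 0.000632, limma adjusted p = 0.194). It kept that direction without any single array (0.97 to 1.25, limma adjusted p 0.0702 to 0.466). Under the other alternatives it was 0.87 to 1.08 (limma adjusted p 0.132 to 0.737). The reported fit takes whole leukemia and L-GMP arrays as independent, although like-numbered wild-type arrays were taken as pairs. The SE of this average may therefore be too small. A second, dimmer Bcl11a probe set gave 0.65 in L-GMP and 0.74 in whole leukemia. In this averaged comparison limma called 0 of the 45 genes, with 0.0338% called among all tested. At an unadjusted p under 0.05 there were 5 members, Runx1, Cebpd and Bcl11a higher and Irf8 and Erg lower, which is 11.1% beside 7.72% of all genes. The B cell marker list, a lineage in which Bcl11a is known to be expressed, had means of 5.40 to 5.62 in wild-type and 5.38 to 6.03 in knockout arrays. In knockout whole leukemia its means were 5.90, 6.03 and 5.42. Its member Ighm, the immunoglobulin heavy chain gene, read 10.19, 9.96 and 7.26 on those arrays, so that list, Ighm and Bcl11a were all higher on arrays 1 and 2 than on array 3. In wild-type whole leukemia Ighm read 7.09, 8.51 and 7.91. In L-GMP it spanned 6.71 to 7.74 in the wild type and 7.19 to 7.72 in the knockout. The part of B cells in the Bcl11a value was not tested. For dendritic cell markers these ranges were 6.00 to 6.83 and 5.70 to 6.26.

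Sox4, an HMG-box factor that promotes leukemic self-renewal (probe set 17286231), lay high on 1 array. It read 5.56, 5.98 and 5.40 in wild-type and 6.09, 8.53 and 5.58 in knockout L-GMP, against 5.21, 5.75 and 5.49 in wild-type and 5.32, 5.74 and 5.02 in knockout whole leukemia. Its L-GMP difference of 1.09 (SE 0.60, 95% interval -0.25 to 2.42) was 0.19 without both number-2 knockout arrays. On knockout L-GMP array 2 the eosinophil, basophil and mast cell list and the progenitor granule list were high as well, as given with Cebpb.

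Myb, the progenitor factor on which MLL-AF9 cells depend (probe set 17239664), lay between 10.69 and 11.26 on 11 of the 12 arrays. It measured 10.69, 10.73 and 10.86 in wild-type and 11.08, 8.87 and 10.81 in knockout whole leukemia, and 10.91, 10.87 and 10.76 in wild-type and 11.26, 10.84 and 10.95 in knockout L-GMP. Knockout whole leukemia array 2, the one with high erythroid markers, lay below all others. Myc, the cell growth factor, was lowest on that array too, at 6.94 against 7.88 to 9.37 on the other 11. Genotype differences were -0.51 (SE 0.45) and 0.17 (SE 0.45) for Myb in whole leukemia and L-GMP. Without both number-2 knockout arrays they were 0.18 and 0.26, and those of Myc were -0.06 and -0.29.

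Etv6, an ETS repressor required by marrow stem cells (probe set 17463673), overlapped between genotypes in both populations. It read 9.33, 9.64 and 9.70 in wild-type and 9.44, 8.66 and 9.74 in knockout whole leukemia, and 9.30, 9.90 and 9.64 in wild-type and 9.73, 9.79 and 10.05 in knockout L-GMP. Its genotype differences were -0.28 in whole leukemia and 0.24 in L-GMP (SE 0.25 each). Without knockout whole leukemia array 2 the former was 0.03, and without wild-type L-GMP array 1 the latter was 0.08. Mycn, a MYC paralog (probe set 17279998), lay at the dim limit. It read 4.90, 4.74 and 4.73 in wild-type and 4.77, 4.63 and 4.85 in knockout whole leukemia, and 4.71, 4.52 and 4.65 in wild-type and 4.73, 4.73 and 4.78 in knockout L-GMP. Ikzf1, Lmo4 and Hmga2 differed by -0.04 to 0.18, Ikzf2 by -0.31 in L-GMP and -0.43 in whole leukemia, and Eya1 by 0.56 and 0.35. The Ikzf2 differences turned to 0.78 without wild-type L-GMP array 1 and to 0.16 without wild-type whole leukemia array 1. Those of Eya1 ran from -0.20 to 2.00 and from -0.57 to 1.65 without single arrays.

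Immediate early and quiescence factors were higher in knockout L-GMP for 9 of 9 genes (median 0.179) and in knockout whole leukemia for 6 of 9 (median 0.13), with 0 called and 0 at an unadjusted p under 0.05 in either. This balance rested on 2 arrays. Without both number-2 wild-type arrays 5 of 9 lay higher in knockout L-GMP (median 0.01) and 2 of 9 in knockout whole leukemia (median -0.176). Jun, a subunit of AP-1 (probe set 17427312), measured 8.89, 5.96 and 8.27 in wild-type and 8.35, 7.68 and 7.10 in knockout whole leukemia, and 8.68, 6.08 and 8.10 in wild-type and 8.90, 8.41 and 8.12 in knockout L-GMP. Wild-type array 2 was the lowest of its group in both populations, more than 2 log2 units below the others in whole leukemia. The L-GMP difference of 0.85 (SE 0.79) was 0.08 without both of those arrays. Fos, Egr1, Egr2, Egr3, Junb, Klf2, Klf6 and Nr4a1 differed by 0.01 to 0.36 in L-GMP, and in whole leukemia by -0.29 to 0.45.

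The same wild-type arrays were the lowest of the wild type in both populations for 7 of the 9 genes, Egr1, Egr3, Fos, Jun, Junb, Klf2 and Klf6. For all genes tested this share was 14.6%, for the 45 transcription factors 16 genes (35.6%), and for 18 other immediate early genes 9. The mean of the 9 genes was 6.13 on wild-type whole leukemia array 2 and 6.18 on wild-type L-GMP array 2, against 6.71 to 7.46 on the other 10 arrays. Fos, the partner of JUN whose promoter is shown above with Jun's, read 5.38 and 6.18 on these arrays and 6.31 to 9.17 on the rest. These arrays also stood apart for genes outside the immediate early lists. Of the other hematopoietic transcription factors, Irf7 read 9.38 and 8.67 on them, against 5.52 to 6.97 on the rest. Irf9 read 8.05 and 7.91 on them, above every other array. Both genes were picked after their values were seen, and the cause was not tested. Immediate early transcripts are known to respond to cell handling. Whether handling differed between samples is not given in the labels and was not tested. The other immediate early genes had 0 of 18 called by limma for genotype, and Ier3, an early survival gene, had the lowest p of them (0.66 in L-GMP, 0.61 in whole leukemia, limma adjusted p = 0.466 for the mean of both).

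L-GMP was next compared with whole leukemia within each genotype, which asks how the leukemia-initiating fraction differs from the bulk. In the wild type limma called 0 of the 45 genes, with 0% of all genes called. At an unadjusted p under 0.05 there was 1 member, Nr4a1, lower in L-GMP, which is 2.22% of members, where 2.5% of all genes passed and 1.57% did so in that direction. Arrays did not overlap for 6 members, all lower in L-GMP, namely Cebpb, Spi1, Gfi1b, Mycn, Id2 and Nr4a1 (13.3%, beside 10.3% of all genes and 5.4% in that direction). For knockout cells limma called 0 members and 0% of all genes. In that comparison Runx1, Gata2, Erg, Etv6 and Sox4 (higher in L-GMP) and Cebpb and Maf (lower) had an unadjusted p under 0.05. These 7 members are 15.6%, beside 7.39% of all genes and 14.1% of 71 other hematopoietic transcription factors. The member count ran from 2 without knockout whole leukemia array 2 to 10 without knockout whole leukemia array 1. Arrays did not overlap for 5 members in the knockout (11.1%, beside 10.2%).

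The median member difference was -0.081 for wild-type and -0.024 for knockout cells. In these comparisons 24 and 25 of 45 genes lay lower in L-GMP, beside 9084 and 8441 of all 17749 genes. Averaged over genotypes, limma called 0 members and 0% of all genes. At an unadjusted p under 0.05 there were 6 members, Gata2 higher in L-GMP and Cebpb, Klf6, Maf, Id2 and Nr4a1 lower. This is 13.3%, beside 7.52% of all genes and 14.1% of 71 other hematopoietic transcription factors. All 8 lineage choice factors lay lower in L-GMP on this average (median -0.192), although Irf8, Gfi1 and Id1 turned without 1 array, and 8 of 11 progenitor and leukemia factors lay higher (median 0.134). The C/EBP and core-binding factors were even, 3 higher and 3 lower.

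**Figure D4:**
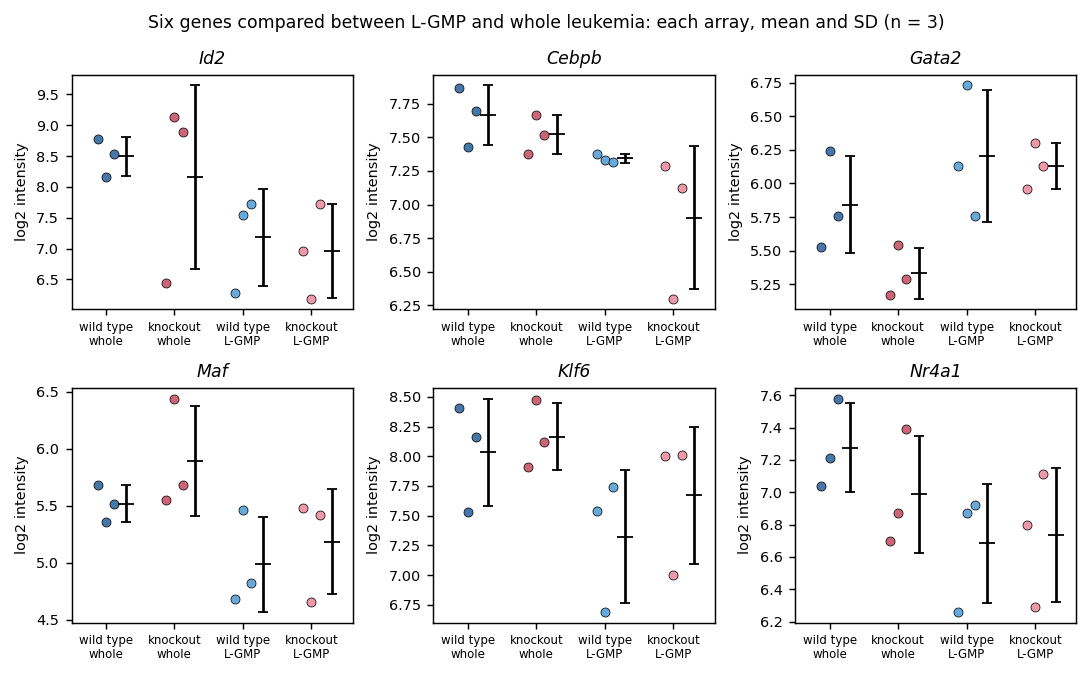
Points are single arrays in log2 intensity for 6 genes in the 4 groups, with the mean and SD (n = 3) beside them. Id2 is lower in L-GMP by 1.31 among wild-type and 1.20 among knockout arrays although 1 knockout whole leukemia array lies at 6.44, every L-GMP array of Cebpb lies below every whole leukemia array, and Gata2 separates the populations in the knockout.

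Cebpb was the member whose 6 L-GMP arrays all lay below its 6 whole leukemia arrays, which held for 0.203% of all genes in that direction and 0.355% in either. L-GMP spanned 6.30 to 7.38 and whole leukemia 7.38 to 7.87, so the ranges met at their ends. The wild-type whole leukemia values were 7.87, 7.43 and 7.70 and the knockout ones 7.38, 7.67 and 7.52. The mean difference was -0.47 (SE 0.16, 95% interval -0.82 to -0.12, limma adjusted p = 0.661), and -0.32 without knockout L-GMP array 2.

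Id2, the inhibitor of E proteins that favours dendritic and innate lymphoid cells (probe set 17280310), had the largest mean difference. It measured 8.78, 8.16 and 8.54 in wild-type whole leukemia and 6.28, 7.55 and 7.72 in wild-type L-GMP, which did not overlap. In the knockout whole leukemia read 6.44, 9.14 and 8.89 and L-GMP 6.96, 6.19 and 7.72, which overlapped through whole leukemia array 1. The mean difference was -1.25 (SE 0.48, 95% interval -2.32 to -0.19, limma adjusted p = 0.661), and -0.82 without both number-2 knockout arrays. Maf, a macrophage factor near background (probe set 17505903), read 5.68, 5.36 and 5.52 in wild-type and 5.55, 6.44 and 5.68 in knockout whole leukemia, and 4.68, 5.46 and 4.82 in wild-type and 5.48, 4.66 and 5.42 in knockout L-GMP. The populations did not overlap in the knockout. The Maf difference was -0.62 on average (SE 0.21, limma adjusted p = 0.661), and -0.35 without both number-2 knockout arrays. A second, dimmer Maf probe set gave only -0.10 and -0.09.

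Klf6, a zinc-finger factor of macrophage activation (probe set 17285000), measured 8.41, 7.53 and 8.16 in wild-type and 7.91, 8.47 and 8.12 in knockout whole leukemia. In L-GMP it measured 7.54, 6.69 and 7.74 in the wild type and 8.0, 7.0 and 8.01 in the knockout. The populations overlapped in both genotypes, with a mean difference of -0.60 (SE 0.25), and -0.36 without both number-2 knockout arrays. Within like-numbered wild-type arrays, which were taken as pairs, Klf6 lay lower in L-GMP in 3 of 3. Its wild-type difference of -0.71 had an unadjusted limma p of 0.0709 in the reported fit (SE 0.35). With the number as a block shared by both genotypes the unadjusted p was 0.0398 (SE 0.29, limma adjusted p = 1). That block is not a paired test of the wild type. Nr4a1, the orphan nuclear receptor of patrolling monocytes (probe set 17315178), read 7.04, 7.21 and 7.58 in wild-type whole leukemia and 6.26, 6.87 and 6.92 in wild-type L-GMP, without overlap. Knockout values were 6.70, 6.87 and 7.39 in whole leukemia and 6.80, 6.29 and 7.11 in L-GMP, which overlapped. Its difference was -0.59 (SE 0.26) in the wild type and -0.25 (SE 0.26) in the knockout.

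Mature-cell genes ran the same way as these factors. All 17 neutrophil markers lay lower in L-GMP in both genotypes, their means spanning 7.55 to 10.80 in whole leukemia and 6.60 to 8.2 in L-GMP. Of 18 monocyte markers 17 lay lower in wild-type L-GMP and 11 in knockout L-GMP. The 9 genes listed as C/EBPε targets and secondary granule genes all lay lower in both genotypes (median -1.185 and -1.955), with 0 called. Most of them are also among the neutrophil markers, so the 2 lists are not independent. Cebpe itself differed by -0.20 (SE 0.52) and -0.46 (SE 0.52). Mmp8, a collagenase of secondary granules, had the lowest p of them in the knockout (-3.87, SE 1.10, limma adjusted p = 0.671). The part of mature-cell content in the values of Cebpb, Id2, Maf, Klf6 and Nr4a1 was not tested.

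Higher in L-GMP, Gata2 had the lowest p. It read 6.13, 6.73 and 5.76 in wild-type and 5.96, 6.30 and 6.13 in knockout L-GMP, against the whole leukemia values given above. In the knockout every L-GMP array lay above every whole leukemia array, for a difference of 0.79 (SE 0.24, 95% interval 0.25 to 1.34, limma adjusted p = 0.671). In the wild type the populations overlapped (0.37, SE 0.24, and 0.10 without L-GMP array 2). The like-numbered whole leukemia array, the highest of its group at 6.24, was kept in the latter fit. The mean over genotypes was 0.58 (SE 0.17, limma adjusted p = 0.655). Erg was likewise higher without overlap in knockout L-GMP (0.75, SE 0.29, limma adjusted p = 0.671) and differed by -0.19 (SE 0.29) in the wild type. In the knockout Runx1, Etv6 and Sox4 lay higher by 0.35, 0.58 and 1.37. Without 1 array these fell to 0.20 for Runx1 (knockout L-GMP array 3), 0.27 for Etv6 (knockout whole leukemia array 2) and 0.47 for Sox4 (knockout L-GMP array 2). Comparisons with knockout whole leukemia share its 3 arrays with the genotype comparison above, so the values of Erg and Gata2 in both are not independent. All 8 tested sorting-gate and progenitor genes lay higher in L-GMP in the knockout, and 5 of 8 in the wild type.

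The genotype-by-population interaction asks whether the genotype difference in L-GMP departs from that in whole leukemia. Limma called 0 of the 45 genes and 0% of all genes. Erg was the 1 member with an unadjusted p under 0.05 (2.22% of members, beside 2.06% of all genes and 1.2% in its direction). Its genotype difference lay 0.93 higher in L-GMP than in whole leukemia (SE 0.40, 95% interval 0.04 to 1.83, unadjusted p = 0.0425, limma adjusted p = 1), and 0.64 without wild-type whole leukemia array 3. For Irf8 the interaction was 0.75 with an interval of -1.58 to 3.07, and for Bcl11a 0.14 with an interval of -0.86 to 1.13. These intervals hold both no difference and differences as large as the genotype effects themselves. Sox4 had the largest estimate (1.21, SE 0.85), which was 0.31 without knockout L-GMP array 2, and Etv6 (0.52) and Tal1 (-0.50) were the others of lowest p. Without knockout whole leukemia array 2 these were 0.21 for Etv6 and -0.12 for Tal1.

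Some factors differed more between array numbers than between groups. Whole leukemia and L-GMP arrays that share genotype and number were compared with those of the same genotype and another number; the genes named in this paragraph were chosen after their values were seen. Eya1, a transcriptional coactivator and phosphatase that MLL fusions are known to switch on (probe set 17221375), read 9.68, 5.67 and 5.87 in wild-type whole leukemia and 9.98, 5.58 and 5.73 in wild-type L-GMP. In the knockout the values were 5.41, 7.60 and 9.25 in whole leukemia and 6.52, 7.43 and 9.02 in L-GMP. Array 1 of the wild type and array 3 of the knockout were thus high in both populations, and the mean gap was 0.34 between like-numbered arrays against 2.46 between others. Ikzf2, encoding the Ikaros family member Helios, showed the same for wild-type array 1 (6.59 and 7.96, against 4.66 to 4.94 on the other wild-type arrays) and knockout array 2 (5.36 and 6.71, against 4.74 to 4.90). The gaps were 0.42 against 1.67 for Fos and 0.46 against 1.34 for Jun.

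Counted over the set, 6 of 45 genes (13.3%) had like-numbered gaps under 0.5 times the other gaps, namely Eya1, Fos, Hmga2, Jun, Ikzf2 and Fli1, beside 5.71% of all genes. Medians of this ratio were 0.845 for the members and 0.92 for all genes. Irf8 (1.38) and Cebpb (1.00) were among the factors with no such likeness. The labels do not state that a number marks 1 animal.

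**Figure D5:**
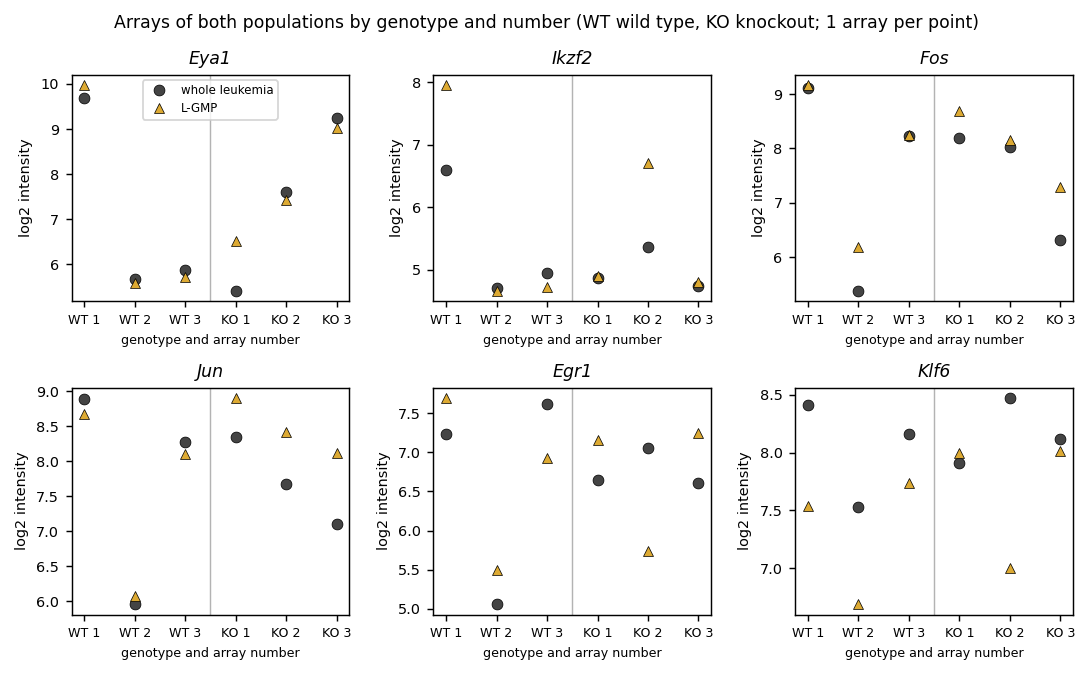
Points are single arrays in log2 intensity for 6 genes, placed by genotype (WT wild type, KO knockout) and array number, with circles for whole leukemia and triangles for L-GMP. Circle and triangle of a number lie close together for Eya1 in the wild type, although its numbers 1 and 2 differ by more than 4 log2 units. The largest Eya1 gap is 1.11, at knockout number 1. Ikzf2 and Fos show such pairs in the wild type except for a gap of 1.37 at Ikzf2 number 1. Wild-type number 2 is the low pair of Fos, Jun, Egr1 and Klf6.

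Beyond the listed genes, 72 of 78 other hematopoietic transcription factors had a probe set and 71 were tested. Limma called 0 of them in each of the 7 comparisons, with 5 (7.04%) at an unadjusted p under 0.05 in the averaged genotype comparison, beside 7.72% of all genes. Tcf4, the E protein that specifies plasmacytoid dendritic cells, had the lowest p of these. It measured 7.18, 7.90 and 7.18 in wild-type and 6.39, 6.22 and 6.39 in knockout whole leukemia, and 7.19, 8.09 and 7.47 in wild-type and 6.96, 6.82 and 6.41 in knockout L-GMP. All 6 knockout arrays lay below all 6 wild-type arrays, which held for 0.372% of all genes in that direction, for 0.654% in either, and for 0 of the 45. The mean difference was -0.97 (SE 0.18, limma adjusted p = 0.143), and Cebpg, a C/EBP partner without an activation domain, had the same separation at -0.55 (SE 0.13, limma adjusted p = 0.32). For L-GMP against whole leukemia averaged over genotypes, 51 of the 71 lay lower in L-GMP (median -0.075), beside 8624 of all 17749 genes. Klf13 (-0.47) and Stat6 (-0.38) had the lowest p of the 71 (limma adjusted p = 0.655 each). In that comparison 10 of the 71 (14.1%) had an unadjusted p under 0.05, and so did 10 in the knockout alone. The listed genes had similar shares, 13.3% and 15.6%.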

How the data were processed

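Total RNA of 5000 sorted cells per sample was amplified and biotin-labelled with NuGEN kits, per the labels' protocols. The deposited series matrix holds 1 linear intensity per probe set and array (33794 probe sets, 17.96 to 9108.2, array medians 36.9 to 39.3). Neither the software nor the background correction and normalization that the authors used before depositing them is known, being not given in the sources used here. Each deposited intensity was taken to log2 with no pseudocount and no further scaling. Of the probe sets, 23521 had 1 gene symbol in the platform annotation, which can be old, 1814 several, and 8459 none. A gene was its single-symbol probe set of highest mean; 4431 genes with a mean under 4.72, the 25th percentile of probe sets, were dropped as dim, and 17749 were tested.

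Differences were tested with limma 3.58.1 (lmFit, eBayes; statmod 1.5.0; R 4.3.3) with 1 mean per group over all 12 arrays, 8 residual and 2.36 prior degrees of freedom, and Benjamini-Hochberg adjustment over all 17749 genes, called under 0.05. The median SE of a difference was 0.15, and an exact permutation test of 3 arrays against 3 cannot go below p = 0.1. The number of arrays limits the precision, and the fit takes all 12 arrays as independent, including those of like number. The fit was checked on simulated data. Values on every array are given for called genes, the 4 of lowest p in each comparison and the 2 brightest of each role group; further genes given so were chosen after their values were seen. The members, role groups and other lists were chosen with earlier results of these data known, the members by symbol alone.

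Deviations from group means correlated between like-numbered whole leukemia and L-GMP arrays at 0.36, 0.62 and 0.3 in the wild type, over 0.1 in every pair, so the numbers were taken to pair populations there; in the knockout (0.13, 0.09 and 0.43) and across genotypes (-0.1 to 0.19) they were not. Alternatives were quantile normalization, other dim filters, the mean of all probe sets, array weights, a trended robust variance, fits of the compared groups alone, a replicate block, and each array left out. Leaving out both number-2 arrays of a genotype was added after seeing the data. Promoter windows came from the RefSeq table of GRCm38.p6.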

Additional observations from a re-analysis of the deposited data

How the results depend on the processing

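The count of called transcription factors stayed at 0 in all 7 comparisons under every alternative run and without any single array. For the 4 genes of lowest p in each comparison, all 631 recomputed differences kept their direction and stayed uncalled. Many of these directions could not turn. Other dim filters, a trended variance, fits of the compared groups alone and the replicate blocks leave a difference of group means as it was. Leaving out an array from outside a comparison does so too. Over all 45 genes the direction was less stable: it turned without at least 1 single array for 23 genes (genotype in L-GMP), 25 (genotype in whole leukemia), 25 and 21 (population in the wild type and the knockout), 33 (interaction), 15 (mean genotype) and 16 (mean population). Counts at an unadjusted p under 0.05 ran, without single arrays, from 1 to 5 for genotype in L-GMP, 2 to 6 in whole leukemia, 0 to 4 and 2 to 10 for L-GMP against whole leukemia in the wild type and the knockout, 0 to 2 for the interaction, 3 to 5 for the mean genotype difference and 3 to 11 for the mean population difference. Under the other alternatives the same counts ran from 1 to 5, 1 to 5, 0 to 6, 3 to 7, 0 to 1, 3 to 10 and 5 to 8; the 10 came with array weights (5 in the fit reported) and the 6 with the compared groups alone (1 in the fit reported). With the array number as a replicate block shared by both genotypes, 0 members were called in any comparison. The wild-type population count at an unadjusted p went from 1 to 3 (Gata2, Klf6 and Nr4a1), which is not a paired test of the wild type. With genotype and number as a random replicate block (consensus correlation 0.15) the mean genotype count went from 5 to 3 (Cebpd, Erg and Bcl11a). Neither block changed a call among the 45 genes; calls over all genes are given next.

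Calls over all genes were few and less stable. For the mean genotype difference the 6 calls became 51 with array weights, 3 with the mean of all probe sets, 2 with the random block, 3 without both number-2 wild-type arrays and 1 to 15 without single arrays. In L-GMP the 1 genotype call became 0 with no dim filter, the compared groups alone, the number block or without both number-2 wild-type arrays, 2 with the mean of probe sets or a trended robust variance, 4 with array weights and 0 to 2 without single arrays. For L-GMP against whole leukemia in the knockout 0 calls became 1 with the lowest 50% left out or a trended variance, 2 with the random block and 40 without knockout whole leukemia array 1; the mean over genotypes gave 1 with a trended variance and 9 without that array. In whole leukemia 0 genotype calls became 1 without both number-2 knockout arrays and 0 to 1 without single arrays. The cause of these moves was not tested. Sox4 had opposite signs for its 2 probe sets in whole leukemia (-0.12 and 0.17). Dim genes such as Mycn, Irf4, Mecom and Hlf are limited by background.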
